A study of Homo sapiens with 15 samples.

Results

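This comparison asked what decitabine added in CP70 cells that had also received PXD101. CP70 is an ovarian cancer cell line derived from A2780 and resistant to cisplatin. Of the 15 arrays of the series, 6 entered the contrast by their titles, 3 of CP70 given both drugs and 3 of CP70 given PXD101 alone. Per the labels' protocols, the combined arm received decitabine at 0.1 µM over 48 h, and PXD101 at 0.1 µM was present in the later 24 h. Those protocols head the combined arm once as A2780/cp80 and then describe A2780/cp70 cells; the titles say CP70, and the titles were followed. The arm with PXD101 alone received PXD101 at the same dose over 48 h. In both arms cells were collected 96 h after drug removal, and treatment had begun at the same confluence. The contrast therefore holds the addition of decitabine together with a shorter exposure to PXD101, and these cannot be told apart. The remaining arrays, used beside the contrast, were untreated CP70, CP70 given 0.1 µM decitabine for 48 h, and A2780, with 3 arrays each. The samples are labelled as biological replicates. The p-values measure the spread between replicate cultures, pooled over all 5 groups, A2780 among them. The contrast itself concerns cultures of a single line. In bulk RNA, a change in all cells and a larger change in some cells cannot be told apart.

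Decitabine is a cytidine analog that is built into DNA during replication and traps DNA methyltransferases, so that methylation is lost as cells divide. Methylated promoters are known to keep many germline genes, above all the cancer-testis antigens of the X chromosome, silent in somatic cells. Drugs of this class are also known to raise interferon-stimulated genes, and loss of methylation of endogenous repeats is a described route to that response. PXD101, also called belinostat, inhibits histone deacetylases and so raises the acetylation of histones and other proteins.

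RNA was measured as a log2 array value for each of 19775 genes. The arrays resembled each other closely within each arm, with correlations across genes of 0.995 to 0.997 in the combined arm and 0.994 to 0.997 in the PXD101 arm. Between the arms they were 0.979 to 0.988. On a principal component analysis of the 6 arrays, the first component held 72.3% of the variance and separated the arms. The difference between 3' and 5' actin probe sets, a sign of RNA quality, was 0.424 to 0.491 log2 with both drugs and 0.384 to 0.509 with PXD101, so the arms overlapped. Untreated CP70 replicate 2 stood apart from its group. Its correlation with each PXD101 array was 0.995 to 0.997, and with the untreated arrays 1 and 3 it was 0.983 and 0.986. It enters no arm of the main contrast, but the spread of each gene was estimated over all 5 groups. The array therefore also enters the errors and p-values of that contrast. A fit of only the 6 arrays, which leaves out all other groups, called 3174 genes against 1965. Untreated replicate 2 matters as well where decitabine alone is set beside the contrast. The epithelial genes KRT18 and EPCAM lay above the median gene level of 6.28 log2 on all 6 arrays. KRT18 read 8.92 or more and EPCAM 6.40 or more. These genes do not stand for their list. The median over 22 epithelial and Muellerian markers lay between 5.60 and 6.05 on the 6 arrays, below the median gene. KRT19 read 5.27 or less on each PXD101 array. The values of PTPRC, the common leukocyte antigen, were looked up after the fit. PTPRC lay between 3.62 and 3.95 on the 6 arrays, below the lower quartile of gene levels of 4.34. The median over 14 leukocyte markers lay between 4.29 and 4.71 on these arrays. Not every marker was low, as TYROBP read 6.59 or more in the combined arm, above the median gene.

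With decitabine added, 1169 genes rose and 796 fell (limma, Benjamini-Hochberg adjusted p under 0.05 over all genes), which is 5.91% and 4.03% of the genes tested. The rises were larger than the falls. At least 2-fold changes were called for 405 rises and 68 falls, or 2.05% and 0.344% of genes. The largest rise was 6.77 log2 and the largest fall -1.61 log2. Rises of 8-fold or more numbered 43, against 1 fall of more than 3-fold. The arrays of the arms did not overlap for 1162 of the 1169 rises and 786 of the 796 falls. A call itself favours such separation, and uncalled genes such as PRIM1 and HDAC1 showed it too. Its share over all genes was not counted, so these counts add no support to the calls. The median difference over all genes was -0.01 log2. The split of calls moved with the scaling, from 59.5% higher in the deposited values to 52.2% after repeated quantile normalization (1100 higher, 1007 lower) and 45.0% after centring each array on its median (956 higher, 1167 lower). Without array 2 of the combined arm, 642 rises and 296 falls were called.

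**Figure D1:**
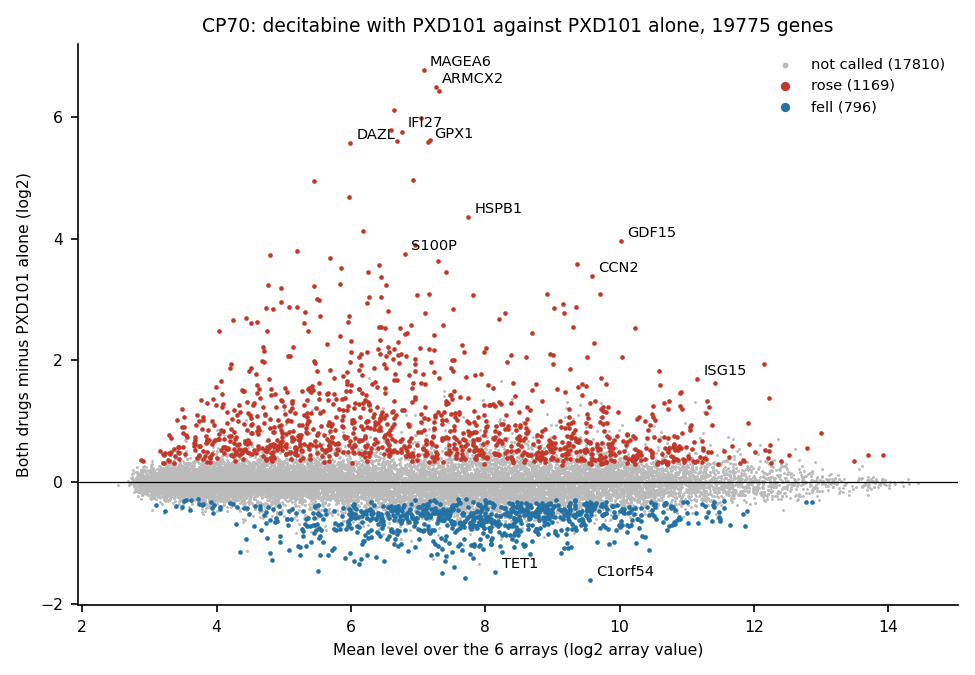
Each point is 1 of 19775 genes, with its mean level over the 6 arrays on the x axis and the difference of both drugs minus PXD101 alone on the y axis, both in log2. Rises (red, 1169) reach 6.77 while falls (blue, 796) reach -1.61.

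The largest rises were mostly genes normally restricted to germ cells, together with a small number of genes low in untreated CP70 and high in its parent. Among the 16 largest rises were MAGEA6, MAGEA12, MAGEA4, MAGEA1, MAGEB2, SSX1 and CTAG2, which are X-linked cancer-testis antigens, and GCNA, GTSF1, DAZL and MAEL, which act in germ cells. GTSF1 and MAEL are factors of the piRNA pathway that restrains transposons, and DAZL is an RNA-binding protein needed for germ cell development. TKTL1, a transketolase-like protein, IFI27, ARMCX2, GPX1 and HSPB1 made up the rest. Of these, ARMCX2, GPX1 and HSPB1 were high in A2780. IFI27 was uneven there, at 4.83, 7.87 and 8.68, and TKTL1 was low, with a mean of 3.69.

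The upstream sequence of 6 genes that rose, chosen by hand, is shown to place the motifs described below and, in DAZL, the CG dinucleotides that decitabine can demethylate. Of these, 4 display the motif CACGTG, or E-box. Over all matched 2-fold rises it was about as frequent as over all genes (11.1% against 9.69%), so the 4 are examples and not a trait of the rises. Each is the 250 bases before the transcription start in RefSeq on GRCh38.p14, written 5' to 3' on the strand of the gene. In the first 4 the capitals mark the E-box CACGTG. It starts 60 bases before the start in ARMCX2 (chrX:101659851-101660100 (minus strand)), 47 in BEX1 (chrX:103064172-103064421 (minus strand)), 67 in GCNA (chrX:71578187-71578436 (plus strand)) and 24 in GPX1 (chr3:49358354-49358603 (minus strand)). In DAZL, at chr3:16605424-16605673 (minus strand), the capitals mark its 28 CG dinucleotides; a second start of DAZL is not shown. In IFI27, at chr14:94110486-94110735 (plus strand), the capitals mark 2 matches to AAANNGAAA, the core of the interferon response element, 1 of them on the opposite strand, which start 108 and 94 bases before the start; a second start of IFI27 is not shown, from which the same matches lie 187 and 173 bases away.
ARMCX2: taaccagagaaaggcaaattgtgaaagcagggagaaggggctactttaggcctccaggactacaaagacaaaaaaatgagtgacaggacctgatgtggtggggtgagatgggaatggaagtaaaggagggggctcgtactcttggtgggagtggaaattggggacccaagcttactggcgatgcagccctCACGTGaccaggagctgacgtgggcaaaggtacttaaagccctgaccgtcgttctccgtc
BEX1: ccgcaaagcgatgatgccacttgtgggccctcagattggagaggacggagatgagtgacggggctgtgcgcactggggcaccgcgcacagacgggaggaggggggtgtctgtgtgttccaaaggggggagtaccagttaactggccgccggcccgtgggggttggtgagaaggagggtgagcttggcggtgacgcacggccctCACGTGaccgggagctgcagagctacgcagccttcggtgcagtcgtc
GCNA: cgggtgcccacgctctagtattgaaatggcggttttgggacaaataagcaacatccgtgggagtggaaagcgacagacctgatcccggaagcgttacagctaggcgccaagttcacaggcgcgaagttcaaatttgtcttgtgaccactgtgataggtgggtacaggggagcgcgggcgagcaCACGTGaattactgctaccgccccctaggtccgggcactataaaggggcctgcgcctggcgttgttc
GPX1: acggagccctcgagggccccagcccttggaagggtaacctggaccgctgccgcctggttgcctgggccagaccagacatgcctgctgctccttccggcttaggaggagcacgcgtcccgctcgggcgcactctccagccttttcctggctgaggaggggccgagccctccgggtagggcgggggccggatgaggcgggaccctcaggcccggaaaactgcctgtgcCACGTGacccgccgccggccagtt
DAZL: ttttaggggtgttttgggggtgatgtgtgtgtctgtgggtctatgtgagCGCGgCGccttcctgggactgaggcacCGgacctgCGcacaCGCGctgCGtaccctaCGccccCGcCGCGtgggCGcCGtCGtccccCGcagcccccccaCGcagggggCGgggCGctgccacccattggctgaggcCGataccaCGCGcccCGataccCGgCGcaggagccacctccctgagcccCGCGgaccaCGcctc
IFI27: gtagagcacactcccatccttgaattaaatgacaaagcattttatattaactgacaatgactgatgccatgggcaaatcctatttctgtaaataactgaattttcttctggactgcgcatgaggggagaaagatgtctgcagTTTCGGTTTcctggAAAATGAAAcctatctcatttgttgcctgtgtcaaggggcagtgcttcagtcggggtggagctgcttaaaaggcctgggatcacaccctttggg

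The antigens among the 16 largest rises went from values near the lower end of the array scale to values above the median gene level of 6.28 log2. MAGEA6 read 3.63, 4.03 and 3.43 log2 with PXD101 and 10.54, 10.64 and 10.22 with both drugs. Untreated CP70 read 3.63 to 3.72 and A2780 had a mean of 4.07, so that all arrays without decitabine were low and all with it were high. The difference was 6.77 ± 0.14 log2 (SE; limma adjusted p = 1.27e-13), or 109-fold. MAGEA1 read 4.67, 4.38 and 4.25 with PXD101 and 9.44, 9.52 and 9.24 with both drugs, a difference of 4.96 ± 0.17 (limma adjusted p = 3.12e-11). SSX1 read 4.25, 3.71 and 4.18 with PXD101 and 10.30, 10.18 and 9.61 with both drugs. CTAG2 had the smallest change of the 16, at 4.12 ± 0.16, from 3.95, 4.08 and 4.30 with PXD101 to 8.43, 8.39 and 7.88 with both drugs. Members of the MAGEA family share long stretches of sequence, and a probe set of one may read another. The table gives no detection calls, so a low value is a level and not absence.

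Across the list of X-linked cancer-testis antigens, 22 of 33 measured genes rose, or 66.7% against 5.91% of all genes, and 11 were called in neither direction. The list's median difference was 1.48 log2, against -0.01 over all genes. Its mean level over all members was 4.14 to 4.21 on the PXD101 arrays and 6.23 to 6.49 on the arrays with both drugs. The median over members with both drugs was 5.98, 6.19 and 6.04, below the median gene. On the PXD101 arrays, 23 of the 33 lay below the lower quartile of gene levels. The count was 3 when genes were limited to those above the median level over all arrays, a limit that leaves out most of the list.

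**Figure D2:**
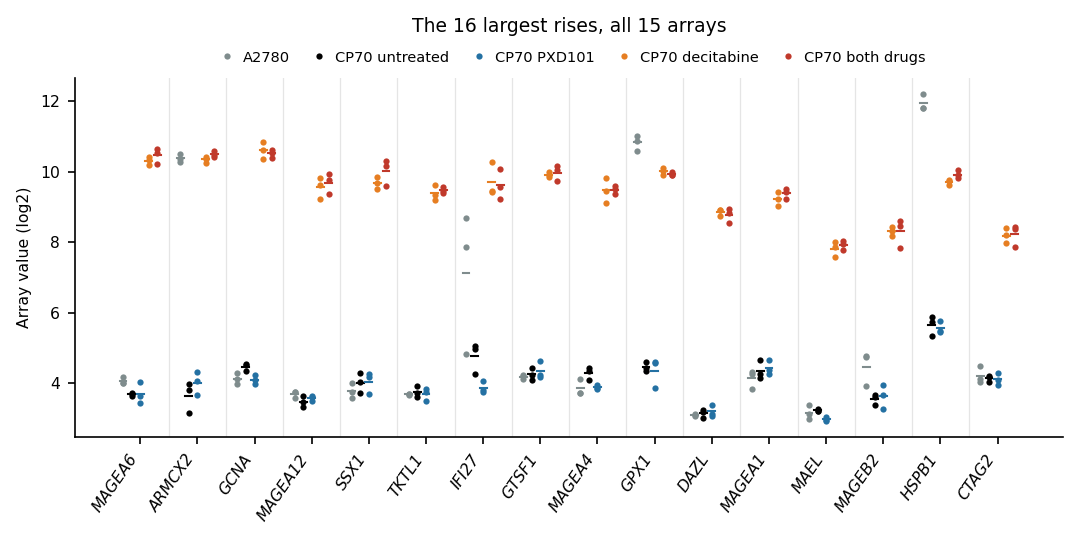
Array values in log2 (y axis) of the 16 genes with the largest rises (x axis), with 1 point per array, a bar at each group's mean and 3 arrays in each of 5 groups. Arrays with decitabine, alone or with PXD101, are high for all 16, and untreated and PXD101 arrays are low; GPX1, HSPB1 and ARMCX2 are also high in A2780, as is IFI27 on 2 of the 3 A2780 arrays.

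Germ cell genes outside those antigen families behaved alike. Of 49 measured genes of the germ cell and piRNA list, 23 rose (46.9%), with a median of 0.37 over the whole list. GCNA, a germ cell nuclear protein, read 3.97, 4.23 and 4.09 with PXD101 and 10.40, 10.63 and 10.54 with both drugs, a rise of 6.42 ± 0.12 (limma adjusted p = 1.25e-13). DAZL went from 3.08, 3.14 and 3.39 to 8.94, 8.83 and 8.54, a rise of 5.57 ± 0.11. MAEL read 2.95, 2.94 and 3.04 with PXD101 and 7.94, 8.04 and 7.77 with both drugs. CTCFL, the germ cell paralog of the insulator protein CTCF, rose by 3.68 ± 0.13 from 3.80, 3.85 and 3.89 to 7.52, 7.33 and 7.72. The genes of meiotic chromosomes had 3 of 27 higher (11.1%) and 1 lower. HORMAD1, a protein of the meiotic chromosome axis, rose by 3.73 ± 0.18 from 2.79, 2.94 and 3.03 to 6.65, 6.86 and 6.44. SPATA22, needed for meiotic recombination, rose by 2.66 ± 0.19. SYCP3 rose by 0.47 ± 0.12 (limma adjusted p = 0.0281), a call that was lost on leaving out any 1 of the 6 arrays, and the synaptonemal complex gene SYCE2 fell by 0.76 ± 0.16.

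A further set of rises was of RNAs that were high in A2780 and low in untreated CP70. ARMCX2, an armadillo-repeat gene of the X chromosome, read 3.68, 4.07 and 4.31 log2 with PXD101 and 10.43, 10.59 and 10.49 with both drugs. The A2780 arrays had a mean of 10.38, close to those with both drugs. GPX1, the main cytosolic glutathione peroxidase, read 4.60, 4.57 and 3.87 with PXD101 and 9.92, 9.99 and 9.91 with both drugs, against 10.84 in A2780. HSPB1, the small heat shock protein HSP27, read 5.46, 5.47 and 5.78 with PXD101 and 9.82, 10.04 and 9.90 with both drugs, which stays below its A2780 mean of 11.94. The rises were 6.48 ± 0.18, 5.59 ± 0.16 and 4.35 ± 0.15 (SE), with limma adjusted p of 3.67e-12, 5.55e-12 and 3.36e-11.

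MEST, MDK and COL1A1, recalled with ARMCX2 from published work on methylation in these lines, also rose. Some of these genes were published from these samples, so their direction has no independent weight here; all 4 of its measured genes rose. MEST, an imprinted gene, went from 4.12, 4.14 and 4.28 to 7.13, 7.12 and 6.48, still far under its A2780 mean of 13.29. MDK, a heparin-binding growth factor, went from 7.09, 7.08 and 6.95 to 8.02, 8.15 and 8.39, a rise of 1.15 ± 0.15. COL1A1, a chain of collagen I, rose by 0.98 ± 0.20 (limma adjusted p = 0.00644), but the mean of its 5 probe sets gave 0.32 with a limma adjusted p of 0.105. In the ARMCX and BEX/TCEAL cluster of the X chromosome, 9 of 19 measured genes rose (47.4%) and 2 fell, with a median of 0.14; the falls numbered 0 or 1 on leaving out any 1 of the 6 arrays. BEX1 went from 4.56, 4.74 and 5.00 to 8.17, 8.20 and 8.02, a rise of 3.36 ± 0.15. ARMCX3, a mitochondrial protein, rose by 3.08 ± 0.23, BEX5 by 2.48 ± 0.15 and ARMCX1 by 1.52 ± 0.14. The imprinted list as a whole had 5 of 34 higher (14.7%) and 1 lower, PLAGL1, a call that was lost in 4 of the 6 fits without 1 array. Those higher included PEG3, a zinc finger gene, at 1.93 ± 0.18 and PHLDA2, a growth-restraining gene of placenta, at 2.00 ± 0.21.

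Starting levels and positions were then described over all rises. Of the 405 rises of at least 2-fold, 99 (24.4%) started below the lower quartile of gene levels with PXD101, and 25.5% of all genes lay there. Of these 99, 74 were below that quartile in A2780 too and 10 were above the median gene level in A2780. RefSeq upstream windows were matched to 15384 of the 19775 genes and to 306 of the 405 rises. Of the matched rises, 33 (10.8%) lay on the X chromosome, against 593 (3.85%) of all matched genes. For rises that started below the quartile it was 22 of 71 (31.0%). The antigen list and the ARMCX/BEX list were chosen as X-linked genes and contribute to these shares. The median number of CG dinucleotides per window was 14 for the 2-fold rises, 12 for those from below the quartile, 18 for the genes that fell and 17 for all genes. Windows of the antigens that rose held a median of 9, and those of the antigens that did not held 4. The order was the opposite in the germ cell list (15 against 19), the ARMCX/BEX list (11 against 14), the integrated stress list (15.5 against 24) and the interferon list (5 against 6).

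The E-box CACGTG, which reads the same on both strands, contains a CG and occurred in the windows of 9.69% of all matched genes. It was present in 8 of 20 matched germ cell genes that rose (40.0%), and in 2 of 21 that did not (9.52%). In the ARMCX/BEX list it was present in 6 of 7 matched genes that rose (85.7%) and 6 of 10 that did not (60.0%). It was in 11.1% of all 2-fold rises, in 2 of 18 matched antigens that rose against 2 of 10 that did not, in 13.0% of the interferon-stimulated genes that rose and in none of the 7 matched stress genes that rose. The ETS-type letters CCGGAA, on either strand, were in 8 of the 20 germ cell genes that rose (40.0%) and in 23.2% of all genes. They were in 17.0% of the 2-fold rises, 9.86% of those from below the quartile, 16.7% of the antigens that rose, 14.3% of the stress genes, 4.35% of the interferon-stimulated genes and none of the ARMCX/BEX genes. The E2F-type letters GCGGGAA, on either strand, were in 8.82% of the 2-fold rises and 9.15% of all genes. A match describes these letters in this window and not a bound site.

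Many interferon-stimulated genes rose. Of 61 measured members, 29 were called (47.5%), with a median of 0.64 log2, and 60 of 61 lay above 0. IFI27, a mitochondrial interferon-stimulated protein, was the largest rise of the list, from 3.75, 4.06 and 3.81 log2 to 9.24, 10.09 and 9.56 (5.76 ± 0.67, limma adjusted p = 4.99e-05). Its 3 A2780 arrays had an SD of 2.03, and the spread is shared over the 5 groups. Antiviral effectors rose from lower middle levels. OAS1, which makes the activator of RNase L, went from 5.09, 5.18 and 5.24 to 7.54, 7.83 and 7.79. RSAD2, or viperin, went from 5.70, 5.49 and 5.58 to 8.01, 8.14 and 7.92, MX1 rose by 2.09 ± 0.21 and IFI44 by 2.06 ± 0.21. ISG15, a ubiquitin-like modifier, was already high and rose by 1.69 ± 0.17, from 10.40, 10.25 and 10.28 to 11.87, 12.12 and 12.02. For all of these the arms did not overlap, which a call itself favours and which was a condition for naming IFI27. The count was 18 without array 2 of the combined arm.

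The sensors and factors upstream of these genes rose in part. Of 37 measured RNA and DNA sensors and signalling factors, 8 rose (21.6%) and 2 fell. Without array 2 of the combined arm 5 rose, and the falls numbered 0 or 1 without any 1 of the 6 arrays and 6 when only those arrays were fitted. RIGI and IFIH1, the cytosolic sensors of double-stranded RNA, rose by 2.25 ± 0.23 and 2.08 ± 0.25. RIGI read 6.15, 6.81 and 6.59 with PXD101 and 8.31, 8.97 and 9.04 with both drugs. IRF7 and IRF9, transcription factors of the pathway, rose by 1.33 ± 0.16 and 1.61 ± 0.25, and the DNA sensor CGAS by 0.66 ± 0.09, where the mean of its probe sets gave 0.20 and was not called. The interferon genes themselves were near the lower end of the scale, as found on looking them up after the fit. IFNB1 read 3.90, 3.68 and 4.03 with PXD101 and 4.51, 4.16 and 4.21 with both drugs (limma adjusted p = 0.0913). The core letters AAANNGAAA, on either strand, were in the windows of 18 of 23 matched interferon-stimulated genes that rose (78.3%) and 16 of 23 that did not (69.6%), against 9.65% of all genes.

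The antigen presentation list had 1 of 34 measured genes higher and 1 lower (2.94% each). PSMB8, an immunoproteasome subunit, rose by 2.48 ± 0.39, from 4.16, 3.93 and 4.30 to 6.53, 6.69 and 6.58. MR1, which presents vitamin metabolites, was the gene that fell, by 0.59 ± 0.14, a call lost without array 1 or 2 of the combined arm or PXD101 replicate 2. The list's count of rises was 9 when only the 6 arrays were fitted and 6 with array weights. B2M, the invariant chain of class I molecules, differed by 0.33 ± 0.12 and TAP2, a peptide transporter, by 0.34 ± 0.12, with limma adjusted p of 0.0914 and 0.0788. Both were among the 9 (0.0369 and 0.0264, limma). Chemokine, cytokine and NF-kB genes had 19 of 41 higher (46.3%), with a median of 0.46. CXCL8, which attracts neutrophils, went from 3.65, 4.35 and 4.08 to 6.40, 7.58 and 7.05. CCL5, which attracts T cells, went from 5.71 to 5.75 on the PXD101 arrays to a mean of 7.70 ± 0.28 (SD, n = 3) with both drugs. IL6 rose by 1.55 ± 0.21 and CXCL10 by 0.95 ± 0.15. The list's count was 12 without array 2 of the combined arm. Of 14 leukocyte markers, TYROBP and FCER1G rose (14.3%), at 1.21 ± 0.24 and 0.67 ± 0.17. The call of FCER1G was lost without array 1 or 2 of the combined arm or PXD101 replicate 1, and the list's mean level was 4.58 to 4.59 on the PXD101 arrays and 4.62 to 4.69 in the combined arm. Of 17 fibroblast and endothelial markers, ENG rose and CD34 fell, but the call of ENG was lost in 5 of the 6 fits that left out 1 array and that of CD34 in all 6.

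**Figure D3:**
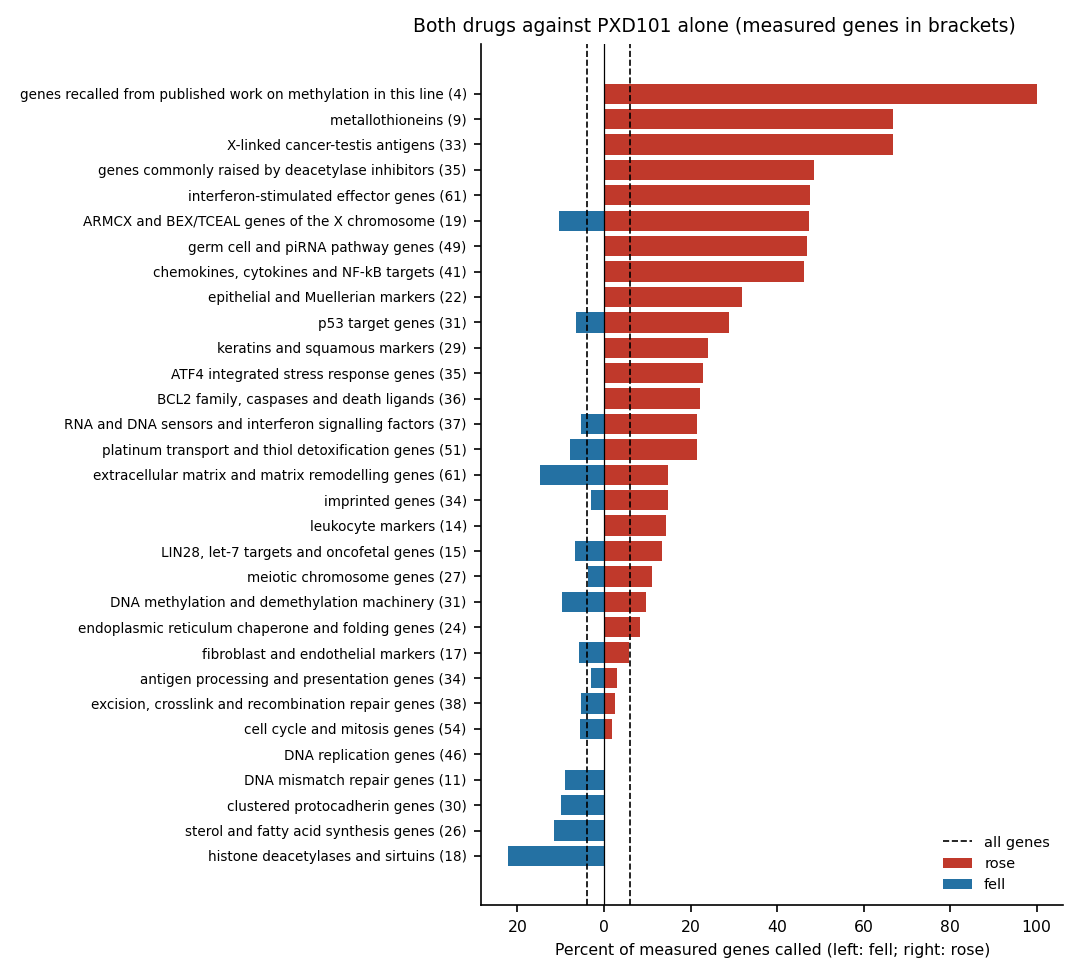
Percent of the measured genes of each list (y axis, number measured in brackets) that fell (left) or rose (right) with both drugs against PXD101 alone; dashed lines mark 4.03% and 5.91% over all genes. Metallothioneins and cancer-testis antigens reach 66.7% higher, and histone deacetylases and sirtuins have the largest share that fell, at 22.2%, a count of 4 that was 1 to 4 without 1 array.

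A second group of rises consisted of stress-response genes, and it differed from the first in how untreated CP70 behaved. GDF15, a secreted stress cytokine, read 6.59, 8.91 and 8.60 log2 with PXD101 and 11.42, 12.34 and 12.21 with both drugs, a rise of 3.96 ± 0.58 (limma adjusted p = 0.000422). Its untreated arrays read 11.07, 9.15 and 11.12, so that replicate 2 sat beside the PXD101 arrays and replicates 1 and 3 lay far above them. S100P, a calcium-binding protein, showed the same order, at 4.33, 5.04 and 5.44 with PXD101, 8.10, 9.15 and 8.78 with both drugs and 9.56, 6.45 and 9.77 untreated. Its rise over PXD101 was 3.74 ± 0.63 (limma adjusted p = 0.00141).

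Of 35 measured genes of the integrated stress response, the program driven by the transcription factor ATF4, 8 rose (22.9%) and the median difference was 0.84 log2, with 33 of 35 above 0. CTH, which makes cysteine, went from 6.36, 7.29 and 7.09 to 8.50, 9.29 and 9.35, a rise of 2.13 ± 0.46. PPP1R15A, which restores translation after stress, rose by 2.08 ± 0.47 and ATF5, a related transcription factor, by 1.25 ± 0.25. TRIB3, a pseudokinase that restrains ATF4, read 6.97, 9.26 and 9.22 with PXD101 and 9.98, 11.08 and 11.23 with both drugs (2.29 ± 0.56, limma adjusted p = 0.0185). PPP1R15A was not called without array 2 of the combined arm or PXD101 replicate 1, and TRIB3 without either of these or array 3 of the combined arm. PXD101 replicate 1 was the lowest of the 6 arrays for GDF15, CTH, PPP1R15A and TRIB3. The list's mean level was 8.38 to 9.57 with PXD101, 9.61 to 10.42 with both drugs, 9.66 to 11.05 in untreated CP70 and 8.69 to 8.85 in A2780. The count fell to 3 without array 2 of the combined arm or without PXD101 replicate 1 and to 4 without array 3 of the combined arm. Of 24 endoplasmic reticulum chaperones, DNAJB9 and HSPA5 rose (8.33%), at 1.15 ± 0.26 and 0.55 ± 0.17. DNAJB9 lost its call without array 2 of the combined arm. HSPA5 lost it in 5 of the 6 fits that left out 1 array and with the mean of its probe sets (0.26, limma adjusted p = 0.452).

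**Figure D4:**
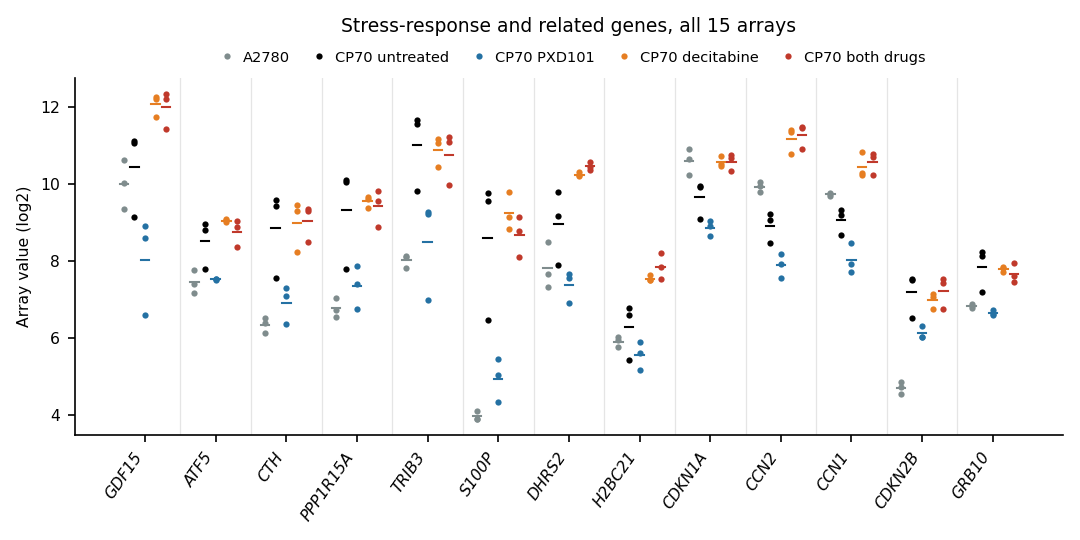
Array values in log2 (y axis) of 13 named genes (x axis), chosen for display after their values were seen, with 1 point per array and a bar at each group's mean. PXD101 arrays (blue) lie under those with both drugs (red), and untreated replicate 2 lies below replicates 1 and 3 in each gene.

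Genes that deacetylase inhibitors commonly raise also rose where decitabine was added. Of 35 measured, 17 rose (48.6%), with a median of 0.60. CRIP1, a LIM-domain protein, went from 5.08, 5.28 and 4.68 to 9.29, 8.87 and 8.57, a rise of 3.90 ± 0.19. CCN2, a matricellular growth factor, went from 7.55, 8.19 and 7.93 to 10.90, 11.47 and 11.46. The short-chain dehydrogenase DHRS2 rose by 3.09 ± 0.38, the histone gene H2BC21 by 2.30 ± 0.28 and CDKN1A, the cell-cycle inhibitor p21, by 1.72 ± 0.21. Among p53 targets 9 of 31 rose (29.0%) and 2 fell, and the falls numbered 0 or 1 without PXD101 replicate 1 or 3 or array 2 or 3 of the combined arm. SFN, or 14-3-3 sigma, went from 7.46, 7.58 and 7.75 to 10.48, 10.63 and 10.26 and was raised by 2.86 ± 0.18, PLK3 by 1.27 ± 0.11, TIGAR by 1.07 ± 0.11 and AEN by 0.73 ± 0.11. Of 36 genes of apoptosis, 8 rose (22.2%), led by PYCARD, an inflammasome adaptor, from 4.98, 4.91 and 5.12 to 7.17, 6.99 and 6.77. That count was 5 without array 2 of the combined arm or PXD101 replicate 2. The BH3-only gene BIK rose by 1.10 ± 0.16, the pore-forming BAK1 by 0.46 ± 0.08, the death ligand TNFSF10 by 1.14 ± 0.23 and the inhibitor BIRC2 by 0.85 ± 0.14.

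Genes that bind metals or handle thiols, which bear on the handling of platinum, were high among the rises. Of 9 metallothioneins, small metal-binding proteins, 6 rose (66.7%), with a median of 1.24. MT1F went from 8.20, 8.03 and 8.29 to 9.59, 9.75 and 9.19. MT2A went from 10.66, 10.70 and 10.79 to 11.94, 12.14 and 11.76. Metallothioneins share much of their sequence, so their probe sets may not be independent. In the platinum transport and thiol list, 11 of 51 rose (21.6%) and 4 fell. After GPX1, AKR1C3 had the smallest p, from 5.03, 5.19 and 5.08 to 7.32, 7.27 and 7.02, and AKR1C1 and AKR1C2, aldo-keto reductases of near-identical sequence, rose by 1.77 ± 0.21 and 1.63 ± 0.21. The plasma glutathione peroxidase GPX3 rose by 1.47 ± 0.15.

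Epithelial keratins and junction genes rose as well. Of 22 epithelial and Muellerian markers, 7 rose (31.8%). KRT19 went from 5.00, 5.27 and 5.23 to 7.14, 7.49 and 7.29, KRT8 rose by 1.50 ± 0.16 and KRT18 by 1.60 ± 0.19. CLDN7, a tight-junction protein, rose by 2.17 ± 0.26 and EPCAM, an adhesion molecule, by 1.28 ± 0.18. In the keratin and squamous list 7 of 29 rose (24.1%), among them S100 proteins, S100A6 by 1.46 ± 0.21, S100A2 by 1.38 ± 0.27 and S100A9 by 0.85 ± 0.11. Genes of the extracellular matrix were called in both directions, with 9 of 61 higher and 9 lower (14.8% each), where the falls numbered 5 to 8 without 1 array and moved most without array 2 of the combined arm or PXD101 replicates 2 or 3. CCN1, a matricellular protein, rose by 2.55 ± 0.22 and LAMB3, a laminin chain, by 1.13 ± 0.13. COL4A5 of basement membranes fell by 1.04 ± 0.13 and LAMB1 by 0.90 ± 0.12. LIN28A, an RNA-binding protein of stem cells, went from 3.39, 3.45 and 3.50 to a mean of 4.30 ± 0.26 (SD, n = 3) and stayed far under its A2780 mean of 10.84.

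The falls were modest. C1orf54 fell most, from 10.16, 10.52 and 10.41 log2 with PXD101 to 8.64, 8.46 and 9.17 with both drugs (-1.61 ± 0.15, limma adjusted p = 7.76e-06). TET1, a dioxygenase that oxidises methylated cytosine, fell from 8.70, 9.10 and 8.86 to 7.33, 7.23 and 7.67, a 2.78-fold change. CA14, a membrane carbonic anhydrase, read 7.95, 8.34 and 8.03 and then 6.62, 6.31 and 6.88. These 3 genes were picked among falls whose arrays did not overlap, so their separation adds no support. The protocadherin PCDHB14 fell by 1.34 ± 0.16, and STON1, HTR1F, a serotonin receptor, and RBMS3, an RNA-binding protein, fell by 1.28 ± 0.15, 1.27 ± 0.16 and 1.29 ± 0.18. Of RBMS3's 7 probe sets 4 fell. Of 30 clustered protocadherins 3 fell (10.0%).

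In other falls the PXD101 arrays lay above most CP70 arrays. MPZL2, an adhesion protein, was at a mean of 8.48 ± 0.43 (SD, n = 3) with PXD101 and read 6.89, 6.55 and 7.27 with both drugs, and untreated CP70 read 6.61, 7.99 and 6.83. SOWAHA, the homeobox gene MEOX1, the proteoglycan CSPG4 and the G protein-coupled estrogen receptor GPER1 had the same order, with untreated replicate 2 above replicates 1 and 3. MEOX1, which fell by 1.41 ± 0.33, lost its call without array 2 of either arm (limma adjusted p = 0.076 and 0.0567).

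Most genes that encode the drugs' targets were not called. DNMT1, the methyltransferase that decitabine traps, read 9.88, 9.91 and 9.85 with PXD101 and 9.78, 9.81 and 9.87 with both drugs (-0.06 ± 0.13, limma adjusted p = 0.841). DNMT3A and DNMT3B differed by -0.05 ± 0.22 and -0.08 ± 0.36. The mean of the 3 probe sets of DNMT3A, however, gave 0.44 and was called higher (limma adjusted p = 0.0211). Of its probe sets 1 was called higher, so the result for DNMT3A depends on the probe set. Of 31 genes of the methylation machinery 3 rose and 3 fell (9.68% each). Besides TET1, the falls were HELLS, a remodelling factor, and SETDB1, a histone methyltransferase, at -0.83 ± 0.16 and -0.56 ± 0.11. HELLS has probe sets called in both directions. Neither HELLS nor SETDB1 was called with the mean of its probe sets (limma adjusted p = 0.359 and 0.112). TDG and EZH2 rose by 0.32 ± 0.08 each, and neither passed without array 2 of the combined arm (limma adjusted p = 0.0813 and 0.12). Of 18 histone deacetylases and sirtuins 4 fell (22.2%). HDAC4 fell from 6.57, 6.62 and 6.29 to 5.79, 5.56 and 5.66, SIRT5 by 0.38 ± 0.08, HDAC3 by 0.44 ± 0.12 and HDAC9 by 0.55 ± 0.16. Without 1 array the count was 1 to 4. HDAC3 lost its call in each of those 6 fits, HDAC9 in 4, and SIRT5 without array 2 of the combined arm and with the mean of its probe sets (-0.14, limma adjusted p = 0.196). HDAC1 and HDAC2 differed by -0.37 ± 0.14 and -0.02 ± 0.08 and were not called (limma adjusted p = 0.115 and 0.939). HDAC1 was called lower when only the 6 arrays were fitted and with array weights (limma adjusted p = 0.0201 and 0.00353). The falls of the list numbered 5 and 6 in these fits.

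Proliferation and repair genes were mostly uncalled. Of 54 cell cycle and mitosis genes 1 rose and 3 fell (1.85% and 5.56%). CDKN2B, an inhibitor of CDK4, rose by 1.11 ± 0.24, and CCND2, a D-type cyclin, fell by 0.50 ± 0.09 with KIF11 and BUB1B. On leaving out 1 of the 6 arrays, BUB1B lost its call in all 6 fits, KIF11 in 3 and CDKN2B in 1 (without array 2 of the combined arm). With the mean of its probe sets CCND2 was not called (limma adjusted p = 0.152). None of 46 DNA replication genes passed in limma, where 6 were lower at an unadjusted p under 0.05, and rank product called 1 lower. The list's median was -0.25 log2, and 12 fell when only the 6 arrays were fitted. PRIM1, a primase subunit, read 10.23, 10.11 and 10.14 with PXD101 and 9.67, 9.44 and 9.52 with both drugs, without overlap (-0.62 ± 0.26, limma adjusted p = 0.16), and untreated CP70 read 8.43, 9.91 and 8.61. Of 11 mismatch repair genes PMS1 fell (9.09%), by 0.54 ± 0.11, with probe sets called in both directions and no call without array 2 of the combined arm. Of 38 genes of excision and crosslink repair, ERCC1 rose by 0.56 ± 0.13, and POLH and FANCF fell by 0.51 ± 0.14 and 0.52 ± 0.16. POLH and FANCF each lost their calls in 4 of the 6 fits that left out 1 array, and ERCC1 lost its call without array 2 of the combined arm. With the mean of their probe sets ERCC1, POLH and FANCF were not called (limma adjusted p = 0.476, 0.0822 and 0.127). When only the 6 arrays were fitted, 12 genes of the list fell. Of 26 sterol and fatty acid genes 3 fell (11.5%), namely LSS, ELOVL6 and DHCR7, by 0.70 ± 0.15, 0.58 ± 0.13 and 0.52 ± 0.13 log2. DHCR7 lost its call in 4 of the 6 fits that left out 1 array and ELOVL6 in 1, without array 2 of the combined arm.

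Decitabine could also be followed without PXD101, in 3 arrays of CP70 with decitabine and 3 of untreated CP70, which share no array with the main contrast. Both contrasts come from the same fit and share each gene's estimate of spread, so their calls are not independent. Decitabine alone raised 963 genes and lowered 620 (limma), 4.87% and 3.14% of those tested. Of the rises, 529 were in both contrasts, which is 45.3% of the rises with PXD101 present and 54.9% of those without. Of the falls, 203 were in both, or 25.5% and 32.7%. HMMR-AS1 and TPT1-AS1 rose in the first and fell in the second, and these are antisense genes whose probe sets may read overlapping RNAs. Among changes of at least 2-fold, 219 genes rose in both, 54.1% of 405 and 76.0% of 288. Across all genes the differences of both contrasts correlated at r = 0.542, a description over genes that share arrays and are not replicates.

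For MAGEA6, ARMCX2 and DAZL the rises stood close in both settings. MAGEA6 rose by 6.77 ± 0.14 with PXD101 present and by 6.63 ± 0.14 without, ARMCX2 by 6.48 ± 0.18 and 6.71 ± 0.18, and DAZL by 5.57 ± 0.11 and 5.71 ± 0.11. GPX1 rose by 5.59 and 5.55, HSPB1 by 4.35 and 4.06 and MEST by 2.73 and 2.56. Other genes high in A2780 differed more, in either direction. BEX1 rose by 3.36 and 2.80, ARMCX3 by 3.08 and 2.28, MDK by 1.15 and 1.60 and COL1A1 by 0.98 and 1.42. None of these differences between the settings was called. In the antigen list 21 of 33 rose with decitabine alone, with a median of 1.43. In the interferon list it was 37 of 61, with a median of 0.80. Metallothioneins had a median of 1.71 with decitabine alone and 1.24 with PXD101 present, where their PXD101 arrays started higher than untreated ones. MT1X read 8.82, 9.46 and 8.83 untreated, 10.08, 9.99 and 10.15 with PXD101, 10.88, 11.25 and 11.49 with decitabine and 11.48, 11.66 and 11.05 with both. The difference of its responses was -0.85 and not called (limma adjusted p = 0.192).

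The stress genes gave different values in the contrasts, but the test of the difference called none of the 35 integrated stress genes (limma; 23 had an unadjusted p under 0.05, all with the larger value where PXD101 was present). In that list decitabine alone gave a median of -0.31, with 3 of 35 genes lower and the others uncalled in limma, against 0.84 and 8 higher with PXD101 present. Of the 405 rises of at least 2-fold, 120 were not called higher with decitabine alone. In 56 of these 120, untreated replicates 1 and 3 both lay at least 1 log2 above untreated replicate 2. The same held for 7 of the 285 called in both and for 1.45% of all genes. Whether this split accounts for the missing calls was not tested. GDF15 read 12.21, 12.26 and 11.75 with decitabine alone, near its values with both drugs, and its difference from untreated CP70 was 1.63 ± 0.58 (limma adjusted p = 0.102). CTH read 9.29, 9.44 and 8.24 with decitabine and 9.59, 7.55 and 9.43 untreated. For GDF15 the SD was 1.126 on the untreated and 1.255 on the PXD101 arrays. It was 0.284 with decitabine alone and 0.495 with both drugs. For CTH the SD was largest on the untreated arrays, at 1.133. It was 0.656 with decitabine alone, 0.486 with PXD101 and 0.476 with both drugs. DNA replication genes had a median of 0.29 for decitabine alone, with none called in limma in either contrast or for the difference. For the difference, 22 of 46 had an unadjusted p under 0.05 with the lower value where PXD101 was present, and 2 with the higher (limma). The count over all genes is again the 3576 given above. The list's median level was 8.76, 9.85 and 8.75 on the untreated arrays, with replicate 2 apart.

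**Figure D5:**
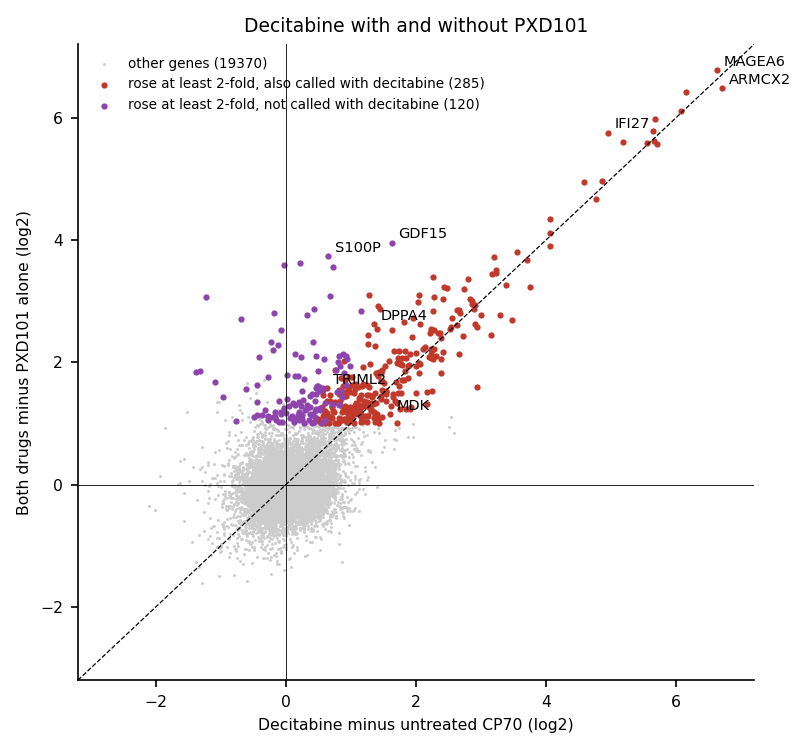
Each point is 1 gene, with the decitabine minus untreated difference on the x axis and the both drugs minus PXD101 difference on the y axis, in log2; the dashed line marks equality. The 285 rises called in both (red) reach 6.77, and some lie well off the line, such as DPPA4 (2.62 against 1.36) and CCN2 (3.39 against 2.27). The 120 not called with decitabine alone (purple) lie left of it, a position that the definition of the colours favours.

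The difference between the responses was itself tested. It was called for 3 genes (0.0152%), and 3576 had an unadjusted p under 0.05 (limma). DPPA4, a chromatin protein of pluripotent cells, read 3.15, 3.24 and 3.22 with PXD101 and 5.81, 5.78 and 5.86 with both drugs, against 3.19, 3.42 and 3.25 untreated and 4.87, 4.60 and 4.45 with decitabine. Its response was larger with PXD101 present by 1.26 log2 (limma adjusted p = 0.0111). DPPA2, its partner, read 4.51, 4.43 and 4.57, then 6.76, 6.98 and 6.56, against 4.44, 4.61 and 4.56 untreated and 5.89, 5.95 and 5.88 with decitabine, and was looked up after these values were seen. TRIML2 rose by 1.58 ± 0.09 with PXD101 present and 0.63 ± 0.09 without (limma adjusted p of the difference = 0.0113). TPT1-AS1 rose by 0.52 ± 0.09 and fell by 0.53 ± 0.09 (0.0111, limma). Without untreated CP70 replicate 2 the count was 4059. It was 0 without decitabine replicate 2 or without array 3 of the combined arm, and 1 with the mean of probe sets.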

How the data were processed

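RNA was amplified and hybridised to Affymetrix arrays, and the authors deposited a log2 value per probe set and array; R 2.10.1 and affy are named in the submitters' processing notes, while their background correction and normalization were not given in the sources used here. That the scale is log2 follows from the range of the values. Of 54675 probe sets, 41097 carried 1 gene symbol, 1801 several and 11777 none in the platform annotation used here, and symbols were updated through Entrez IDs. The probe set with the highest mean stood for each gene, for 19775 genes in all; 10523 had several probe sets. Of 1184 called genes with several probe sets, 20 had a probe set called in the opposite direction. The 62 control probe sets were left out.

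All 15 arrays were fitted as 5 groups with limma 3.58.1 (lmFit, eBayes) in R 4.3.3, and p-values were adjusted by Benjamini-Hochberg over all genes at 0.05. Fold changes are 2 to the power of log2 differences of means, errors are standard errors of 3 against 3 arrays, and no depth applies to arrays. The fit was tested on simulated data. Rank product (100 permutations, 9 array pairs) was an alternative, with refits on the arrays compared, a replicate block, other scalings, array weights, other probe set rules and single arrays left out. Figures and sums used Python 3.11.15 with pandas 2.3.3, numpy 2.4.6 and matplotlib 3.10.9.

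Genes named in the text were the 16 highest rises and the 12 deepest falls whose arrays did not overlap, up to 5 members of each of 31 lists with the smallest p, the genes whose response differed, and the drug targets. The members and the lists were chosen with earlier results of these data known. Of 1047 listed genes, 935 were measured and 112 were not analysed here.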

Additional observations from a re-analysis of the deposited data

Results flagged for a closer look

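In 3 genes the response to decitabine differed between cells with and without PXD101, by the test of the difference itself (limma, adjusted p = 0.0111 for DPPA4 and TPT1-AS1 and 0.0113 for TRIML2). No gene was called without decitabine replicate 2 or without array 3 of the combined arm, 1 was called with the mean of probe sets, and 4059 without untreated CP70 replicate 2. The difference of the responses was 1.26 log2 in DPPA4, where the arrays with both drugs (5.78 to 5.86) lay above those with decitabine alone (4.45 to 4.87). In TRIML2 it was 0.95 log2, with 6.16 to 6.24 for both drugs and 5.57 to 5.75 for decitabine. In TPT1-AS1 it was 1.04 log2, with 5.87 to 5.91 and 5.26 to 5.44. DPPA4 has 3 probe sets and TPT1-AS1 has 5, of which 1 each was called in the main contrast, and the mean of the probe sets of TPT1-AS1 gave a difference of 0.10 for both drugs against PXD101. Exposure to PXD101 was 24 h in the combined arm and 48 h alone, and a change of response cannot be told apart from that.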

How the results depend on the processing

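For both drugs against PXD101, the 1965 calls became 3174 with only the arrays compared, 4840 with array weights, 3500 over every probe set, 473 at 2-fold or more, 820 by rank product and 938 to 1666 on leaving out 1 array. Rises were 749 above the median level, 2532 with weights, 1931 over probe sets, 405 at 2-fold, 502 by rank product and 642 to 1067 without 1 array. Falls were 1526 with only the arrays compared, 2308 with weights, 1569 over probe sets, 68 at 2-fold, 318 by rank product and 296 to 599 without 1 array. Of the rank product calls, 472 of 502 rises and 254 of 318 falls were also called by limma. The 3 genes whose response differed became 0 above the median level, 1 with the mean of probe sets, 5329 with weights, 0 to 4059 without 1 array and 0 without untreated replicates 1 and 3. Of the arrays left out singly, untreated replicate 2 gave the 4059. The 1583 calls for decitabine alone became 507 with only the arrays compared, 6668 with weights, 741 without untreated replicates 1 and 3, and 849 to 4673 without 1 array. Above the median level, 3 antigens, 5 germ cell genes and 6 chemokine genes rose. Interferon genes that rose numbered 49 with only the arrays compared, 46 with weights and 18 to 30 without 1 array; chemokine genes numbered 12 to 20 without 1 array. Stress genes numbered 23 with weights, 14 by rank product and 3 to 12 without 1 array. With the mean of all probe sets, the sign turned in PMS1 (0.14), IGF2BP1 (0.44) and DNMT3A (0.44). The causes were not tested. Of 135 named genes that were called, 102 kept the call under every alternative run. As the replicate numbers of both arms did not deviate together in every pair (r = 0.490, 0.0649 and 0.117), they were used only in a fit with a replicate block, which called 1650 genes. The number of arrays limits precision.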
